A study of Mus musculus with 12 samples.

Results

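The clustered protocadherins are a family of cadherin-like adhesion proteins whose genes stand in 3 adjoining tandem arrays, called alpha, beta and gamma. They were measured here in RNA from mouse meninges, the membranes that cover the brain. The members were all rows of the deposited count table whose gene symbol is Pcdha, Pcdhb, Pcdhga, Pcdhgb, Pcdhgc or Pcdhac followed by a number. This gave 56 of the 47747 rows: 13 alpha, 22 beta and 21 gamma genes. Pcdha10 and Pcdhgc4 were not analysed here. The choice used symbols and no measured value, but the family was put forward with results of this same comparison known, so the counts of changed members below describe these mice and are no independent support.

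All 12 mice were of the C57bl/6 strain. The 6 DSS mice had drunk dextran sulfate sodium, a polymer that injures the colon epithelium, at 2% in their water for 5 days and then plain water. They were culled after 6 days, and the labels do not say from which day this was counted. The 6 Control mice carry the treatment label Control, with no vehicle, age or sex given here. The labels name the colon as source, but meninges in the titles and in the description of the extraction. Marker genes of meningeal fibroblasts summed to 11000 to 20400 CPM (counts divided by the TMM-scaled depth of the library) in every library. The colon epithelium genes Epcam and Vil1 reached at most 2.03 and 1.17 CPM, and Cdx2 had 0 counts in all libraries.

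In neurons, where the family is best known, each cell uses a small combination of these genes as a surface identity. Proteins of matching combinations bind across cells, which lets a neuron tell its own branches from those of others. Every alpha and gamma gene has its own large first exon, coding for the extracellular part, which is spliced to constant exons used by the whole cluster. Beta genes are single-exon genes without a constant part. Most promoters in the array are bound by CTCF and chosen by cohesin-dependent looping, and methylation by Dnmt3b and silencing through Smchd1 keep many of them off. The C-type genes at the ends of the alpha and gamma clusters are used more evenly across cells, and Pcdhgc3 is also expressed outside neurons. In whole tissue, fewer cells of a type and less RNA per cell cannot be told apart.

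Library depth ran from 9312788 to 41869997 counts, and 18593 rows, all 56 members among them, passed the filter on low counts. Control replicate 2 stood apart, with an effective library of 11926230 against 28047534 counts, and DSS replicate 2 carried 191 CPM of skeletal muscle markers against 11.1 to 27.6 CPM in the other libraries. Both stayed in the tests.

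All members lie on chromosome 18 of GRCm38, the assembly that mm10 denotes. In GENCODE M21 the alpha genes span 36930184 to 37187661, the beta genes 37264938 to 37524479 and the gamma genes 37661793 to 37841873. The 13 alpha genes end in the same 3 constant exons of 2860 bases. The 21 gamma genes end in another set of 3 constant exons, of 2116 bases. No base of exon is common to the beta cluster, although Pcdhb21 and Pcdhb22, its last 2 genes, overlap by 455 bases.

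The deposited counts of the gamma genes were nearly equal. In each library the lowest gamma member had 1949 to 8904 counts, and the highest had only 1.5 to 1.61 times as many. The lowest count was 94.6% to 96.7% of the count of the median gamma member. Alpha genes were nearly as even at a far lower depth: the lowest member had 49 to 179 counts, which was 84.2% to 94.2% of the median member, and the highest had 1.75 to 2.61 times as many. The beta genes, which have no constant exon, were not even at all, with the highest member 13.4 to 330 times the lowest within a library. No pair of members had identical counts in all 12 libraries, among 78 alpha, 231 beta and 210 gamma pairs. The setting for reads that overlap several genes is not given in the sources used here.

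**Figure D1:**
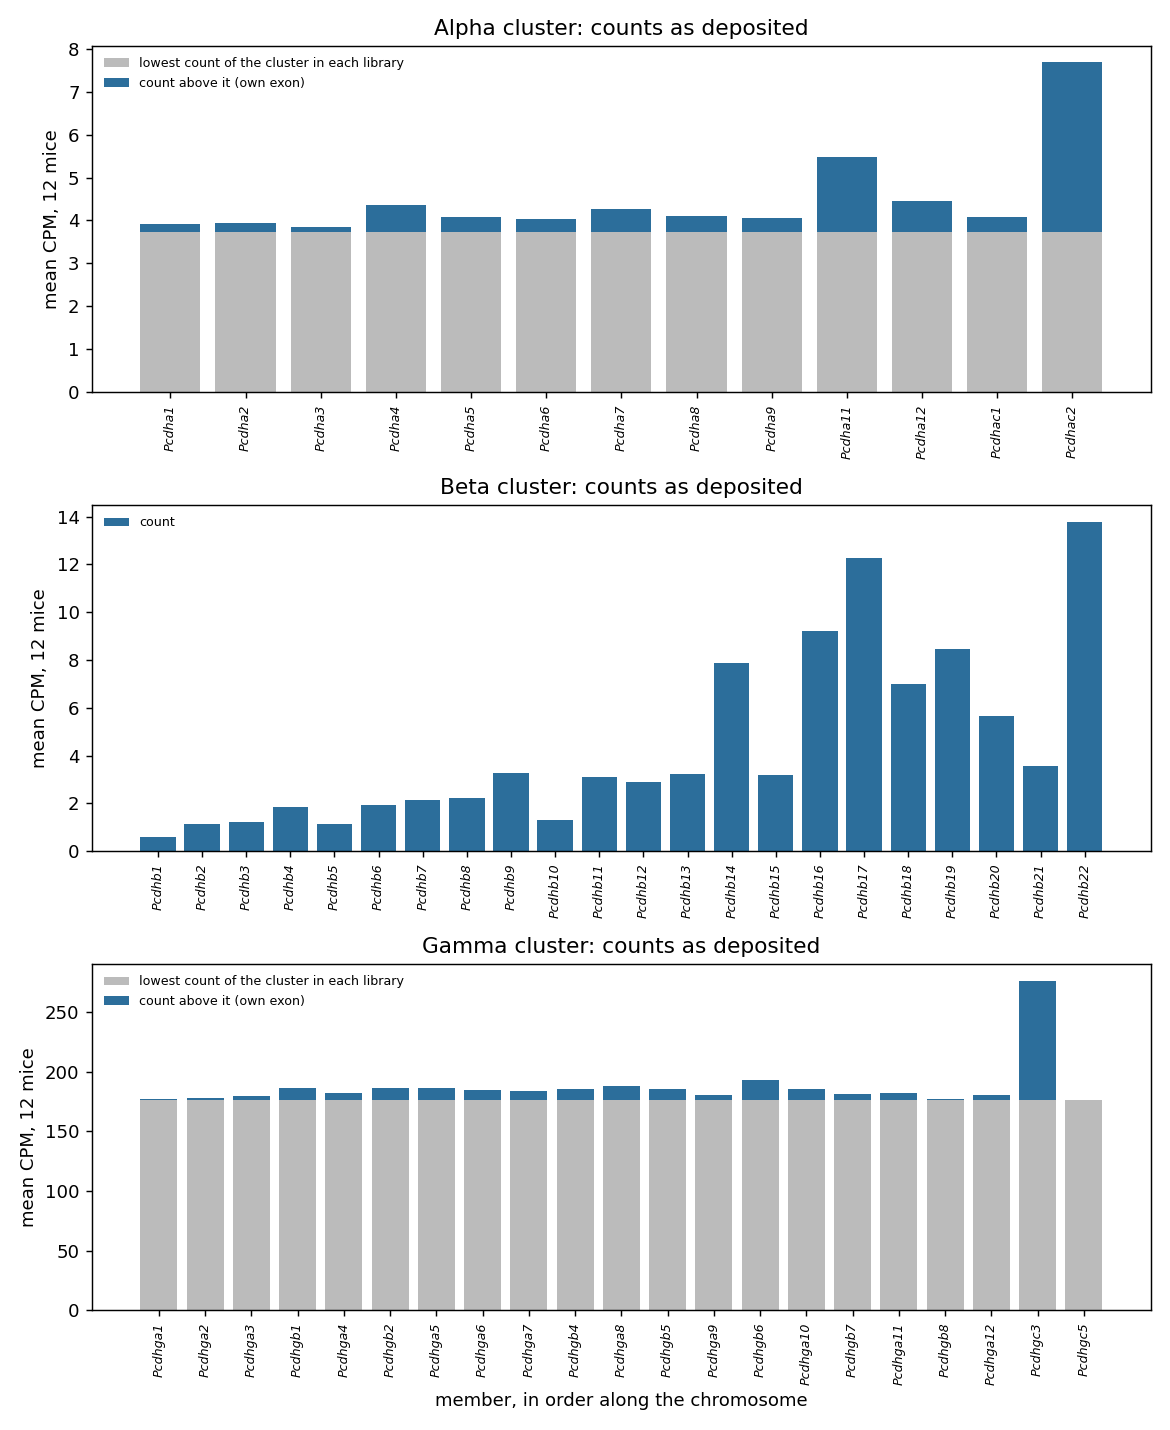
Mean CPM over the 12 mice for each member in chromosome order, with the lowest count of the cluster in each library in grey and the count above it in blue. Grey makes up nearly all of the gamma bars except Pcdhgc3, most of the alpha bars except Pcdhac2, and is not defined for the beta cluster, whose bars differ widely.

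Predicted rows that reach across the array held the same kind of count. Gm37013 and Gm37388, each overlapping an alpha first exon and 91 bases of gamma constant exon, differed from each other by at most 12 counts in any library and were equal in 2 libraries. They had 12.7% to 16.7% of the lowest gamma count. Gm42416, with 446 bases of gamma constant exon, had 31.5% to 36.3%, and Gm38182, with 628 bases, had 41.7% to 45.5%. The count in these 4 rows was thus larger the more constant exon they held.

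To see the members apart, the lowest count of the cluster in the same library was subtracted from each alpha and gamma count. The remainder is called the own-exon count here. Where members share only constant exons, it is a lower bound for reads of the gene's own exon. The subtracted count may itself hold some own-exon reads, and the remainder is 0 by construction for whichever member is lowest. Pcdhgb1 and Pcdhga4 also share exon with another member beyond the 2116 constant bases. Only 2622 of 5776 and 1570 of 4727 bases of their exon are shared with no other member. Pcdhgb4 and Pcdhga8 do so over a shorter stretch. Reads there can stay in the own-exon count, so the levels of these genes, and sums that include them, may be too high. The lowest gamma member was Pcdhgc5 in 10 of 12 libraries. In the alpha cluster the place was shared by 6 genes, most often Pcdha3 (4 libraries). Levels of different genes are compared below as own-exon CPM per kilobase (kb) of exon shared with no other member in the alpha and gamma clusters, and per kb of the whole gene in the beta cluster.

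Own-exon reads in the gamma cluster came foremost from Pcdhgc3, the C-type gene known from non-neuronal tissue. Its own-exon level was 26.1 to 33.9 CPM per kb over the 12 mice (29.7 ± 2.68, SD). It held 35.8% to 46.9% of all gamma own-exon counts, and its own exon gave 36.4% of its deposited count. The next highest gamma genes were Pcdhgb6 at 6.66 ± 0.507 CPM per kb (5.52 to 7.34) and Pcdhga8 at 4.78 ± 0.689 CPM per kb (3.31 to 5.79). No mouse's Pcdhgb6 level came near its Pcdhgc3 level, while the Pcdhgb6 and Pcdhga8 ranges overlapped over mice. An antisense gene, BC037039, lies over 1559 bases of the Pcdhgc3 exon. It had 11 to 79 counts, against 1039 to 5313 own-exon counts of Pcdhgc3.

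Pcdhgc5, the last C-type gene of the cluster, stood at the other end. It had 0 own-exon counts in 10 libraries and 18 and 20 in Control replicates 1 and 2, a mean of 0.0312 CPM per kb. Its deposited count of 170 to 192 CPM in controls and 158 to 187 CPM in DSS mice was therefore at or near the lowest of the cluster in every library. The 12 Pcdhga genes ran from 0.321 CPM per kb (Pcdhga1) to 4.78 (Pcdhga8), with a median of 2.44. The 7 Pcdhgb genes ran from 0.471 (Pcdhgb8) to 6.66 (Pcdhgb6), with a median of 2.72. These 2 variable subfamilies covered much the same range.

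Own-exon and constant-exon levels were then set beside each other. Summed over the cluster, gamma own-exon CPM per kb was 0.86 to 1.12 times the lowest count per kb of constant exon. In the alpha cluster this ratio was 1.65 to 2.84 in controls (2.09 ± 0.448, SD, n = 6) and 1.9 to 3.82 in DSS mice (2.94 ± 0.737), ranges that overlapped.

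The alpha cluster was much lower, and its own-exon reads came foremost from Pcdhac2, the C-type gene nearest the constant exons. Pcdhac2 lay at 0.912 to 1.92 CPM per kb (1.3 ± 0.305, SD, n = 12). It held 33.7% to 45.5% of the alpha own-exon counts, and 51.1% of its deposited count came from above the shared level. Pcdha12 followed at 0.286 ± 0.0952 and Pcdha11 at 0.244 ± 0.0702 CPM per kb, ranges that overlapped. The symbol Pcdha11 carries 2 gene identifiers in GENCODE M21, so its value is uncertain. Pcdhac1, the other alpha C-type gene, lay at 0.139 ± 0.0905 CPM per kb, close to the cluster's median member of 0.144. It had 0 to 13 own-exon counts in a library, and its highest level, 0.246 CPM per kb, was below the lowest of Pcdhac2.

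Beta genes, which have no constant exon, tended to be higher toward the end of the array, with exceptions such as Pcdhb10 at 0.458 and Pcdhb21 at 0.761 CPM per kb. The median member lay at 0.817 CPM per kb. Pcdhb17 was highest at 2.63 ± 0.26 CPM per kb (2.2 to 3.11), followed by Pcdhb22 at 2.09 ± 0.213 (1.75 to 2.41) and Pcdhb16 at 1.76 ± 0.203 (1.46 to 2.05). These 3 overlapped in range with their neighbour in the order. Pcdhb22 and Pcdhb17 also had the highest counts, 11.6 to 15.9 CPM and 10.2 to 14.5 CPM.

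The first 11 beta genes had a median level of 0.5 CPM per kb and the last 11 one of 1.19. Spearman's rho between chromosome order and level was 0.87 over the 22 genes and 0.73 to 0.88 within single mice, a description over genes that share libraries and an array. In the alpha cluster rho was 0.7 over 13 genes and in the gamma cluster -0.07 over 21. The gamma cluster therefore did not share this gradient, with medians of 2.95 and 2.01 CPM per kb in its first 10 and last 11 genes. The alpha rho rests on few reads, since most alpha genes had 0 own-exon counts in some library, as the subtraction sets for the lowest member.

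**Figure D2:**
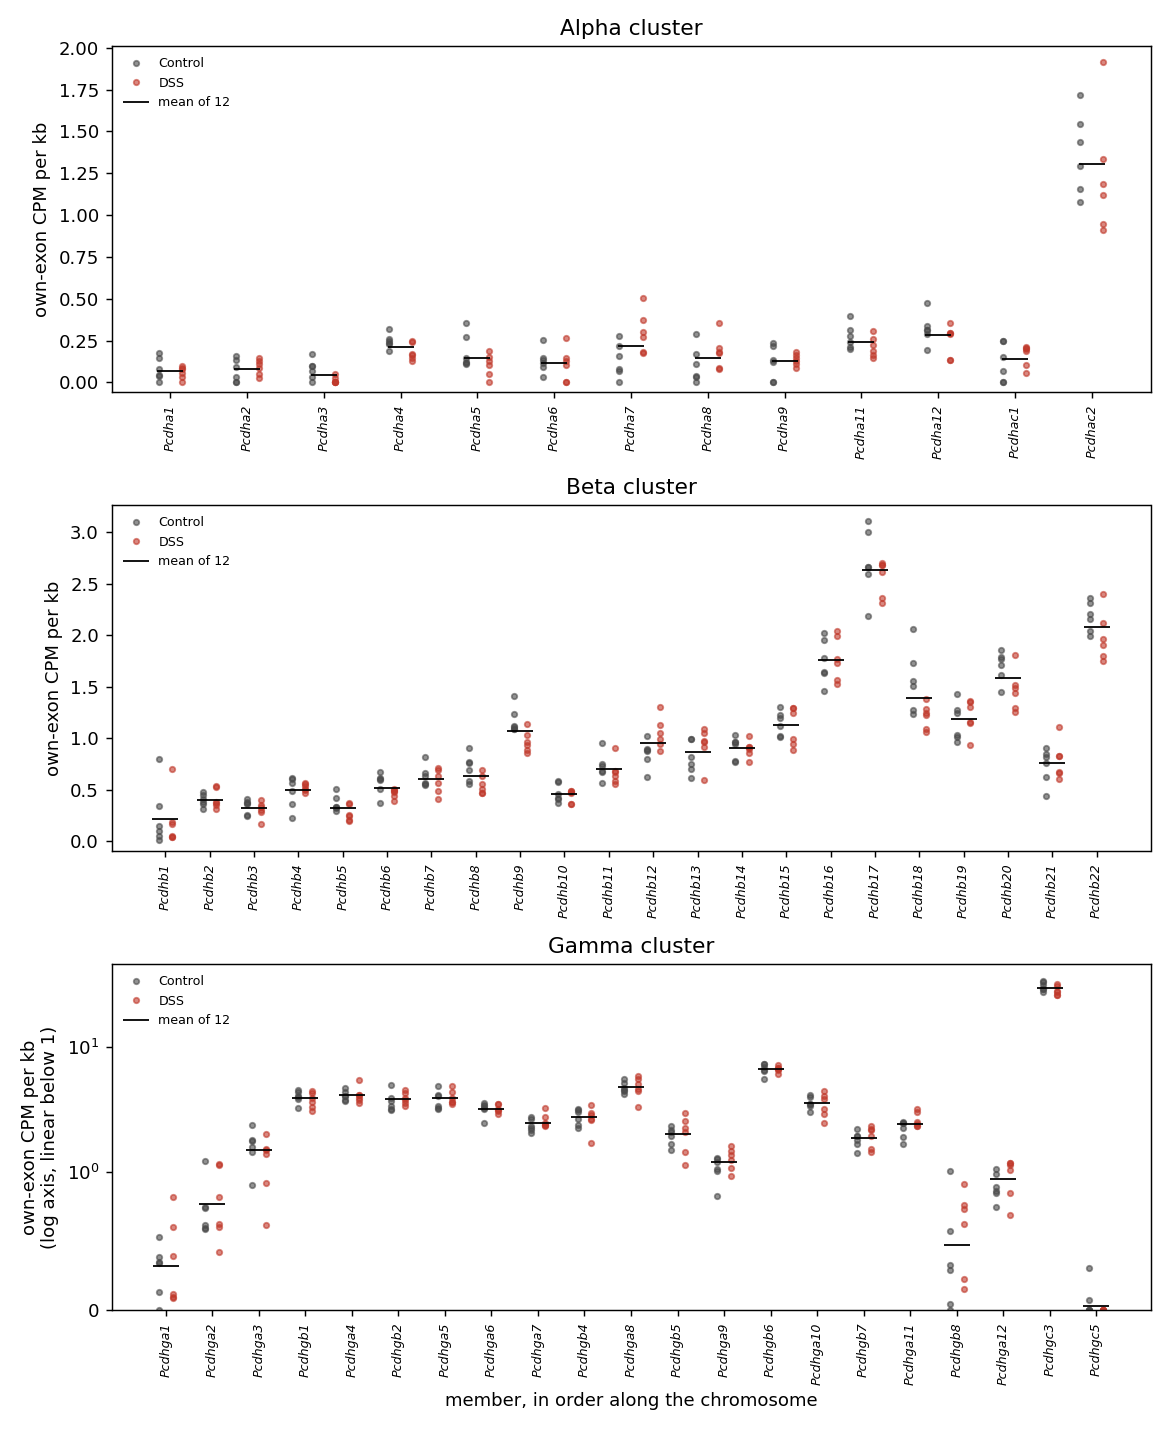
Own-exon CPM per kb of each member in chromosome order, 1 point per mouse (grey Control, red DSS) with the mean of 12 as a bar; the gamma axis is logarithmic above 1. Pcdhac2 and Pcdhgc3 stand above their clusters, beta levels tend upward along the array with exceptions such as Pcdhb10 and Pcdhb21, and Control and DSS points overlap for most genes.

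Pcdhb1, the first beta gene, was the lowest of its cluster at 0.223 CPM per kb and the most variable beta gene. It is singled out after its values were seen. Control replicate 4 had 43 counts and DSS replicate 4 had 44, against 1 to 18 in the other 10 libraries. Its coefficient of variation was 122% in controls and 125% in DSS mice, where the median beta gene had 16.9% and 14.2%.

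Similar sequence between members limits how finely single genes are told apart. Of all 50-base windows in the own exon, the median alpha gene shared 13.3% with another member, and Pcdha7 shared most at 23.4%. The median was 3.48% in the beta cluster, where Pcdhb12 had 12%, and 1.02% in the gamma cluster, where Pcdhgb1 had 16.8%. How reads with several matching places were counted is not given in the sources used here.

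DSS mice were then compared with controls to ask whether the family's expression in the meninges differs in colitis. Deposited alpha counts were lower in DSS mice, with log2 fold changes of -0.62 to -0.36, while beta and gamma genes did not pass the test. By the quasi-likelihood test of edgeR, with p-values adjusted by Benjamini-Hochberg over all 18593 rows, 7 of 13 alpha genes fell and 0 rose: Pcdha1, Pcdha3, Pcdha4, Pcdha5, Pcdha9, Pcdha11 and Pcdha12. Of all tested genes 4.94% were called, 1.26% as lower and 3.68% as higher. All 13 alpha log2 fold changes were below 0, with a median of -0.53, against -0.02 over all genes tested. Because these rows hold largely the same reads, the 7 calls are not 7 separate measurements. With 1 mouse left out the number of alpha calls ran from 0 (without Control replicate 4 or 5 or DSS replicate 4 or 6) to 12 (without DSS replicate 2), and on own-exon counts it was 0.

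Pcdha4, the member with the lowest adjusted p, had 4.39, 5.12 and 6.00 CPM as lowest, median and highest control and 3.20, 3.34 and 4.06 CPM in DSS mice. Every DSS mouse lay below every control. Its log2 fold change was -0.56 ± 0.124 (SE; edgeR adjusted p = 0.0193). Pcdha3, whose row is almost wholly shared reads, went from 3.84, 4.68 and 5.52 to 2.55, 2.84 and 3.64 CPM, again without overlap, with a log2 fold change of -0.62 ± 0.144 (edgeR adjusted p = 0.0225). Both genes encode variable alpha isoforms. In all, 5 alpha genes (Pcdha1, Pcdha3, Pcdha4, Pcdha9 and Pcdha12) had all 6 DSS mice below the lowest control, as had 0.823% of all tested genes, while 0 beta and 0 gamma genes did.

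The other called genes had similar sizes. Pcdha5 had a log2 fold change of -0.60 ± 0.151 (edgeR adjusted p = 0.0351), Pcdha1 of -0.57 ± 0.145 (0.0364), Pcdha12 of -0.54 ± 0.136 (0.0351), and Pcdha9 of -0.51 ± 0.129 (0.0363). In Pcdha11, the gene with the largest own-exon share among those called, controls had 5.58, 6.31 and 7.52 CPM and DSS mice 3.96, 4.29 and 5.80 CPM. Here 1 DSS mouse overlapped the controls, and the log2 fold change was -0.51 ± 0.123 (edgeR adjusted p = 0.0295).

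The C-type alpha genes were not called. Pcdhac2 had 7.12, 8.50 and 10.5 CPM in controls and 5.46, 6.45 and 9.40 CPM in DSS mice, where DSS replicate 2 was the high one and the other 5 lay below every control. Its log2 fold change was -0.36 ± 0.137 (edgeR adjusted p = 0.154). Pcdhac1 had 4.03, 4.78 and 5.71 CPM in controls and 3.03, 3.20 and 4.11 CPM in DSS mice, with 1 DSS mouse reaching the controls and a log2 fold change of -0.49 ± 0.136 (edgeR adjusted p = 0.0539).

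Most of the alpha difference was in the shared count. That count was 84.2% to 94.2% of the median alpha member's count, so a fit of it tests largely the same reads as the 7 called rows again. The lowest alpha count in each library, taken as a row of its own, was 3.67, 4.47 and 5.28 CPM in controls and 2.55, 2.81 and 3.64 CPM in DSS mice. All 6 DSS mice were below the lowest control, by a narrow margin for DSS replicates 2 and 5. Entered in the same edgeR fit in place of the shared reads, it fell 1.49-fold. Its mean was 4.47 ± 0.649 CPM in controls and 3.00 ± 0.496 CPM in DSS mice (SD, n = 6 each), a log2 fold change of -0.58 ± 0.146 (SE; edgeR adjusted p = 0.0363). Its counts carry a counting error of 7.47% to 14.3% in single libraries. The call held in 4 of the 12 fits that leave out 1 mouse, without Control replicate 1 or 6 or DSS replicate 2 or 5. Over all 12 the log2 fold change stayed between -0.65 and -0.52 with an adjusted p of 0.0239 to 0.0904, and without Control replicate 2 and DSS replicate 2 together it was -0.63 (adjusted p = 0.0369).

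Own-exon alpha counts summed to 7.89 to 12.1 CPM in controls and 6.85 to 13.3 CPM in DSS mice (10.1 ± 1.74 and 9.30 ± 2.31, SD, n = 6). The groups overlapped, with only 2 DSS mice below the lowest control, and the highest of all 12 was DSS replicate 2. Of the 13 alpha genes 6 had enough own-exon counts to be tested. None of the 48 members tested on own-exon counts was called by edgeR at an adjusted p under 0.05, where 4.86% of all rows were, and 3 had an unadjusted p under 0.05. With Pcdha4 at -0.42 ± 0.23, Pcdha11 at -0.38 ± 0.224, Pcdha12 at -0.35 ± 0.295 and Pcdhac2 at -0.16 ± 0.188, the standard errors of the log2 fold changes leave room for a decrease as large as that of the shared row in most of these genes. Pcdha7 went the other way, at 1.04 ± 0.459 (edgeR adjusted p = 0.232), on 0 to 23 counts in a library.

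**Figure D3:**
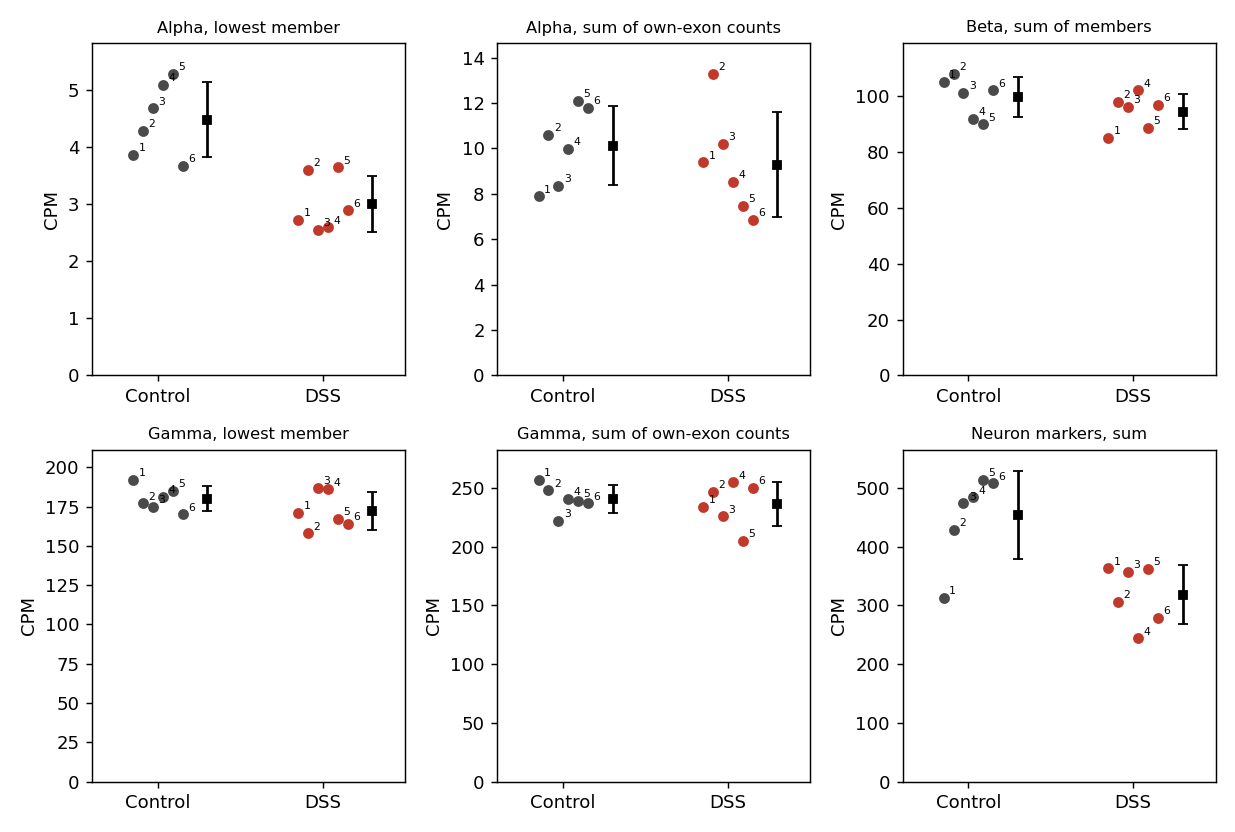
CPM in each mouse, numbered by replicate, for the shared and own-exon counts of the clusters and for the summed neuron markers; squares with bars are the group mean and SD. The lowest alpha count separates the groups (3.67 to 5.28 CPM in controls, 2.55 to 3.64 in DSS mice), whereas the own-exon and beta sums and the gamma counts overlap.

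Markers of several cell types differed between the groups beside the alpha counts. Neuron markers summed to 313 to 514 CPM in controls and 244 to 363 CPM in DSS mice. From Control replicate 1 to Control replicate 5 these sums rose in the same order as the lowest alpha count, which went from 3.86 to 5.28 CPM. Control replicate 6 departed from this, with 508 CPM of neuron markers and the lowest shared alpha count among controls, 3.67 CPM. In DSS mice the order of the neuron sums was not that of the lowest alpha count. The sums were carried mostly by Syp, Snap25, Map2, Slc17a6 and Tubb3, with control means of 164, 94.5, 67.3, 44 and 35.7 CPM. Other markers were low, such as Stmn2, Nefl, Rbfox3 and Elavl4 at 4.55, 2.1, 1.6 and 0.618 CPM in controls. Whether the sums follow the amount of neurons was not tested. The median log2 fold change of the 15 tested of 16 markers was -0.59, and 2 fell: Tubb3, a neuronal tubulin gene, by 0.69 and Slc17a6, the gene of a vesicular glutamate transporter, by 0.87 on the log2 scale (edgeR adjusted p = 0.0217 and 0.0276), calls kept in 8 and 6 of 12 fits without 1 mouse. DESeq2 called 5 and limma-voom 8 of the 15, 7 had an unadjusted edgeR p under 0.05, and 1.26% of all tested genes fell. No marker was at 0 in every library, while Nefm and Gad2 were at 0 in some. Astrocyte markers summed to 251 to 348 CPM in controls and 194 to 296 CPM in DSS mice, and 1 of 7 (Gja1) fell. Gja1 alone had a mean of 170 CPM within a mean sum of 300 CPM in controls, and 128 within 223 CPM in DSS mice. Which cells its counts came from was not tested. All 7 log2 fold changes were negative, from -0.604 to -0.285 with a median of -0.405. Of these markers 3 had an unadjusted edgeR p under 0.05, and DESeq2 and limma-voom each called 2. Among 14 meningeal fibroblast markers 1 fell, the retinoic acid synthesis gene Aldh1a2 (log2 fold change -0.62 ± 0.12, edgeR adjusted p = 0.00874), in sums of 12300 to 18000 CPM in controls and 11000 to 20400 CPM in DSS mice. Among 7 osteoblast markers 1 fell, the bone matrix gene Ibsp (-1.06 ± 0.279, edgeR adjusted p = 0.0416), in sums of 752 to 1820 CPM and 424 to 1720 CPM. The Gja1, Aldh1a2 and Ibsp calls were kept in 10, 12 and 4 of 12 fits without 1 mouse. All 10 neutrophil markers rose, from sums of 68.5 to 200 CPM to 260 to 1390 CPM. The part of these cell types in the alpha difference was not tested.

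The beta cluster showed no called gene by edgeR, DESeq2 or limma-voom, with 2 of 22 at an unadjusted edgeR p under 0.05. Its median log2 fold change was -0.10, and 15 of 22 genes were below 0. Summed beta counts were 89.9 to 108 CPM in controls and 85.0 to 102 CPM in DSS mice, which overlapped. Pcdhb18, the beta gene with the lowest p, had 6.24, 7.74 and 10.4 CPM in controls and 5.34, 6.22 and 6.98 CPM in DSS mice. Its groups overlapped, and its log2 fold change was -0.35 ± 0.13 (edgeR adjusted p = 0.142).

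Pcdhb9 had 3.34, 3.41 and 4.31 CPM in controls and 2.63, 2.91 and 3.49 CPM in DSS mice, with 5 DSS mice below the lowest control (log2 fold change -0.27 ± 0.124, edgeR adjusted p = 0.248). For Pcdhb8 the values were 1.94, 2.54 and 3.15 against 1.64, 1.86 and 2.42 CPM (-0.35 ± 0.17, edgeR adjusted p = 0.284). The 3 most abundant beta genes lay closer to 0. Pcdhb22 had a log2 fold change of -0.13 ± 0.0856, Pcdhb17 of -0.08 ± 0.0891 and Pcdhb16 of 0.02 ± 0.106 (edgeR adjusted p = 0.462, 0.724 and 0.95). The highest beta value was that of Pcdhb12, 0.29 ± 0.151.

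Deposited gamma counts, the highest of the 3 clusters, hardly differed between the groups. All 21 deposited log2 fold changes lay between -0.08 and -0.05, with 0 called by edgeR, DESeq2 or limma-voom and 0 at an unadjusted edgeR p under 0.05. The lowest gamma count was 170 to 192 CPM in controls and 158 to 187 CPM in DSS mice (180 ± 7.91 and 172 ± 12.2, SD, n = 6 each), a log2 fold change of -0.06 ± 0.0642 (SE; edgeR adjusted p = 0.669). The 21 near-equal fold changes largely repeat this 1 shared count, except that the own exon of Pcdhgc3 gave 36.4% of its count. Pcdhga3 and Pcdhgc5, which with Pcdhgc3 had the lowest p of the cluster, had -0.07 ± 0.0617 and -0.07 ± 0.0638 (edgeR adjusted p = 0.619 and 0.65).

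On own-exon counts the gamma log2 fold changes ran from -0.30 ± 0.27 (Pcdhga3) to 0.61 ± 0.748 (Pcdhgb8), with a median of 0.06 and 0 of 20 called (0 at an unadjusted p under 0.05). Differences between these genes were not tested, and both ends of the range carry large errors. Pcdhgc3 had 93.4, 103 and 115 own-exon CPM in controls and 88.4, 93.9 and 109 in DSS mice, which overlapped, and a log2 fold change of -0.11 ± 0.0742 (edgeR adjusted p = 0.449). Pcdhgb6 had 14.1, 17.1 and 18.8 own-exon CPM in controls and 15.6, 17.3 and 18.3 in DSS mice, a log2 fold change of 0.00 ± 0.0762. Choroid plexus markers summed to 295 to 9800 CPM over the same 12 libraries, in which the own-exon level of Pcdhgc3 lay between 88.4 and 115 CPM. Their part in it was not tested.

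**Figure D4:**
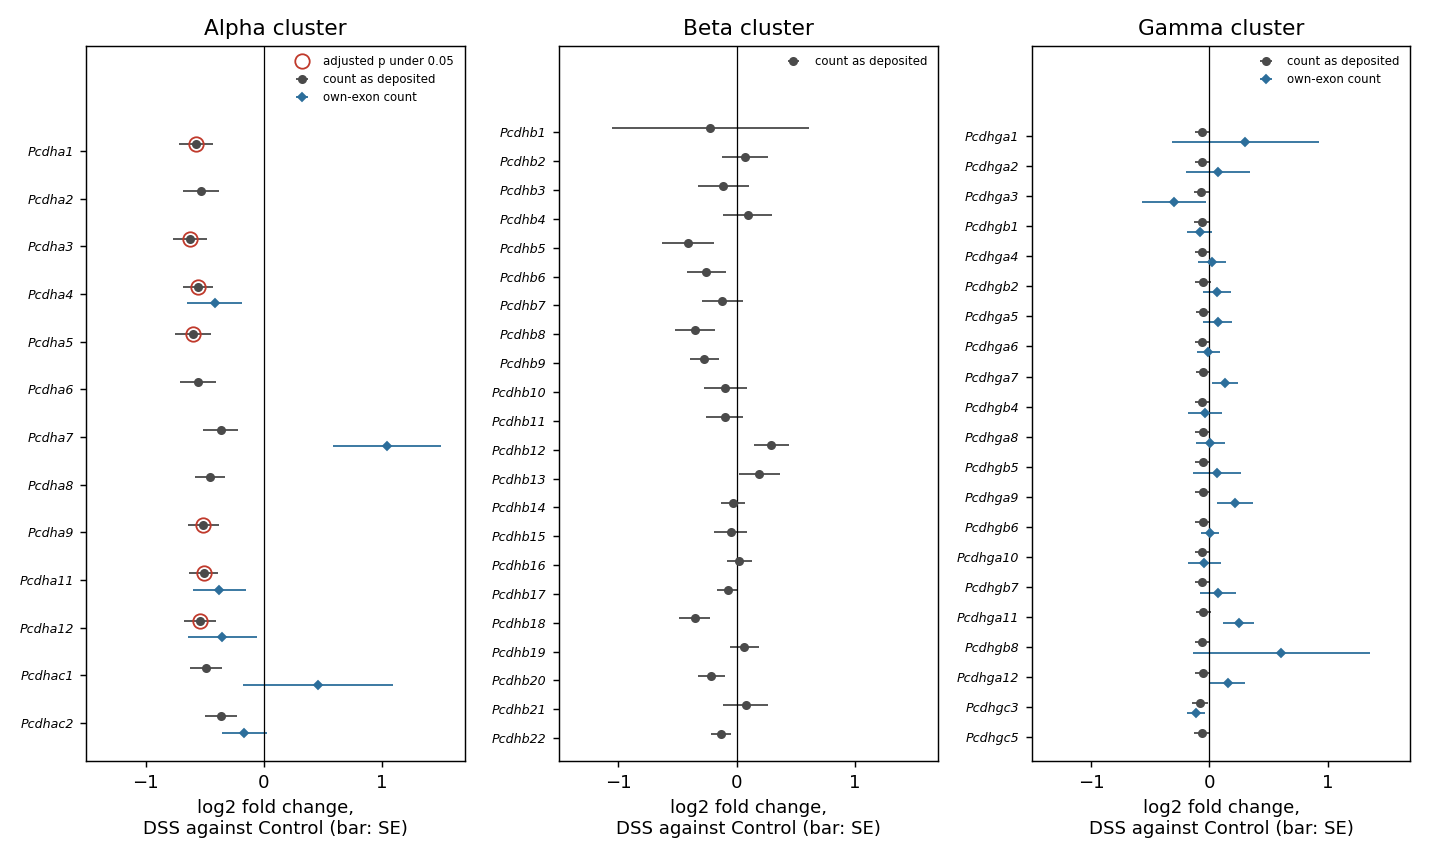
Log2 fold change of each member, DSS against Control, with its standard error, from deposited counts (grey circles) and own-exon counts (blue diamonds; only members with enough counts), with genes at an adjusted p under 0.05 ringed. The 13 alpha values lie between -0.62 and -0.36 in deposited counts, 7 of them ringed, and the 21 gamma values form a column near -0.06 that spreads out once shared counts are removed.

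Genes around the family were measured in the same fit, in lists chosen with earlier results of these data known. Of 11 tested non-clustered protocadherins 1 fell: Pcdh18, a delta protocadherin gene, with 32.8 ± 3.62 CPM in controls and 25.2 ± 3.22 CPM in DSS mice (SD, n = 6 each), a log2 fold change of -0.38 ± 0.0962 (SE; edgeR adjusted p = 0.037). That call was kept in 3 of 12 fits without 1 mouse. Their median log2 fold change was -0.14. Of 11 genes of CTCF, cohesin and its loaders and release factors 0 were called by edgeR, DESeq2 or limma-voom (0 at an unadjusted p under 0.05). Ctcf, whose product binds the promoters of the array, lay at 35.2 ± 3.47 CPM in controls and 34.2 ± 1.71 in DSS mice (log2 fold change -0.04 ± 0.072, edgeR adjusted p = 0.833).

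Of 15 genes of promoter silencing 0 were called by any of these tools (0 at an unadjusted p under 0.05). Smchd1 had a log2 fold change of 0.10 ± 0.0665 and Dnmt3b of 0.30 ± 0.187 (edgeR adjusted p = 0.445 and 0.422). Of 22 genes of cytoplasmic partners and proteolysis, which include kinases and gamma-secretase subunits, 0 were called (2 at an unadjusted p under 0.05, 0 by DESeq2 or limma-voom). Of 9 classical cadherin genes 0 were called by edgeR or DESeq2 and 1 by limma-voom (1 at an unadjusted edgeR p under 0.05). None of these lists had a median log2 fold change as low as that of the alpha genes, whose rows hold largely the same reads. The neuron markers had a lower one, -0.59.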

How the data were processed

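Total RNA from the meninges of 12 mice was sequenced from TruSeq stranded libraries, per the labels' protocols. The authors deposited whole-number counts per gene symbol, not normalized. HISAT2, featureCounts, Trim Galore, FastQC, CASAVA and the build mm10 are named, per the submitters' processing notes. The sources used here give no version, annotation, strand or overlap setting. Columns were assigned by heading, and 0 columns belonged to no sample. The authors' second table, of normalized values, was not used.

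Genes were tested with edgeR 4.0.16 in R 4.3.3: filterByExpr (minimum count 10, minimum total 15), TMM, and the two-sided quasi-likelihood test with treatment only, at a Benjamini-Hochberg adjusted p under 0.05 over 18593 rows. SE was taken as the size of a log2 fold change divided by the root of its F statistic. CPM uses TMM library sizes. P-values set the difference between the groups against the spread between these mice. Over the 30 pairs of libraries within groups, Spearman correlations were 0.967 to 0.987.

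Own-exon counts, chosen after the data were seen, are each alpha or gamma count minus the lowest of its cluster in that library. They were fitted in the same way with 1 row for each lowest count. Exon lengths come from GENCODE M21. The planned length, exon that no other gene overlaps, was replaced by exon shared with no other member, because predicted genes cover much of some first exons, and was kept as an alternative.

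Members, lists and markers were chosen with earlier results of these data known. Named members are the C-type genes, in each cluster the 3 with the highest mean CPM and the 3 with the smallest p, and every called member. From the lists, Ctcf, Smchd1, Dnmt3b and up to 2 called genes were eligible, of which those touching a result are named. The method was tested on simulated data. These held no partly shared exons and no reads with several matching places, so the subtraction was checked only as arithmetic. Alternatives were DESeq2 1.42.0 (size factors, Wald test), limma-voom 3.58.1 with quality weights, other filters, the replicate block, each mouse left out, and Control replicate 2 and DSS replicate 2 left out together. Depth was 9312788 to 41869997 counts; counting error covers single libraries only.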

Additional observations from a re-analysis of the deposited data

Results flagged for a closer look

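Among 87 quantities examined in both groups (174 groups), all 56 members among them, 8 had a mouse far from the rest of its group. This is about 1 in 20. The groups are not independent, since alpha rows hold largely the same reads, as do gamma rows. The 8 may be no more than chance would give, which was not worked out. Of the 8, 3 were beta genes, all in DSS mice. Pcdhb1 stood at 1.81 CPM in DSS replicate 4 (0.12 to 0.499 in the other DSS mice), Pcdhb11 at 4.03 CPM in DSS replicate 3 (2.48 to 3.01) and Pcdhb13 at 2.2 CPM in DSS replicate 1 (3.39 to 4.06). The other 5 were marker sums. DSS replicate 2 had 296 CPM of astrocyte markers (194 to 225 in the other DSS mice) and 191 CPM of skeletal muscle markers (11.1 to 26.1). Control replicate 5 had 1820 CPM of osteoblast markers (752 to 1060 in the other controls). Neutrophil markers stood at 200 CPM in Control replicate 2 (68.5 to 111 in the others) and at 260 CPM in DSS replicate 3 (1060 to 1390 in the others).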

How the results depend on the processing

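The number of alpha calls depended on the setting and on single mice, while their median log2 fold change did not leave -0.59 to -0.48 with any mouse left out. With deposited counts, 0 beta or gamma genes were called under any alternative. The 7 called members became 11 with the DESeq2 Wald test, 12 with limma-voom, 2 with no filter, 3 with the replicate block, 11 without both Control replicate 2 and DSS replicate 2, and 0 on own-exon counts. With 1 mouse left out they numbered 0 to 12: 0 when the mouse left out was Control 4, Control 5, DSS 4 or DSS 6, 1 when it was Control 3 or DSS 1, 2 for DSS 3, 3 for Control 2, 10 for Control 1 and 12 for DSS 2. Single alpha calls were kept in 4 (Pcdha1, Pcdha5, Pcdha9, Pcdha11, Pcdha12), 6 (Pcdha3) or 8 (Pcdha4) of these 12 fits, with adjusted p up to 0.0909. Same-numbered mice did not deviate together (correlations -0.189 to 0.154 over 6 pairs, 1 above 0.1), which cannot show whether they shared a batch. With the replicate block the lowest alpha count had a log2 fold change of -0.58 (edgeR adjusted p = 0.0694). Over all genes the 919 changed (235 lower, 684 higher) became 1554 (518 lower, 1036 higher) with the DESeq2 Wald test; the lower ones numbered 156 with no filter and 479 with limma-voom. Leaving out 1 mouse gave 538 to 1379 changed, 95 to 390 lower and 443 to 989 higher. On own-exon counts the median log2 fold change was -0.26 in 6 alpha and 0.0643 in 20 gamma genes, and Pcdhac1 (0.46), Pcdhga8 (0.0068) and Pcdhgb6 (0.0042) changed sign. With 1 mouse left out, Pcdhb16 ranged from -0.0159 to 0.0847, below 0 when Control 4, DSS 2 or DSS 4 was left out, and Ctcf from -0.082 to 0.0046, above 0 without Control 4. Without subtraction and per kb of all exons, the mean over mice of the median member was 0.76 rather than 0.159 CPM per kb in the alpha and 38.2 rather than 2.54 in the gamma cluster, since shared counts are then in every member. Apart from these shared counts, the cause of these differences was not tested. On own-exon counts 7 of 13 alpha and 1 of 21 gamma genes had too few counts to test.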
